A study of Drosophila melanogaster with 6 samples.

Results

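The UDP-glycosyltransferase (Ugt) and glutathione S-transferase (Gst) genes of Drosophila melanogaster were followed in adult male heads with and without the gene Sex-lethal (Sxl). Members were all probe sets assigned to a single gene whose current symbol begins with Ugt or Gst and continues with a digit or capital letter, a rule that uses no measured value. It found 71 of 18769 probe sets, 35 for 35 Ugt genes and 36 for 34 Gst genes, which is 69 of 11953 genes named on the array. The Ugt genes lay on 2L (11), 2R (5), 3L (2) and 3R (17), and the Gst genes on 2R (16), 3L (3), 3R (13) and the X (2).

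The study compared 3 arrays from males of the strain cm Sxlfp7BO ct, which lack the whole Sxl locus, with 3 arrays from wild-type Oregon-R males. All were 2 to 5 days old and were raised at 25 °C. The deletion males also carried the marker mutations carmine (cm) and cut (ct), which flank the deletion, and the males of both genotypes were brothers from a single-pair cross after more than 6 generations of backcrossing to Oregon-R. The deletion removes Sxl from every cell, and a difference cannot be assigned to Sxl apart from cm, ct and the chromosome stretch between them. The labels call the 3 samples of a genotype biological replicates without saying how many flies each held.

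Both families take part in the handling of toxins, odours and the body's own reactive molecules. Ugt enzymes join a sugar, in insects mostly glucose, from a UDP-sugar donor to small fat-soluble molecules and make them easier to excrete. Gst enzymes join the tripeptide glutathione to reactive compounds. The delta and epsilon classes of Gst are characteristic of insects and other arthropods, while the omega, sigma, theta and zeta classes are shared with vertebrates. Members of both families are known from fat body, gut, Malpighian tubule and antenna.

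Values are array intensities on a linear scale, and differences are log2 fold changes of intensity + 1, deletion minus wild type. A probe set was tested if its mean was in the upper 60% of the array (an intensity of at least about 8.35), and was called if its adjusted p (limma across all probe sets, Benjamini-Hochberg) was at most 0.05. Over all 11261 tested probe sets 2.6% were called. The 3 Sxl probe sets lay between 3.99 and 6.26 on the deletion arrays, against 88.8 to 206 on the wild-type arrays, so the labels match the genotypes. Head origin is taken from the sample titles. Markers of neurons, glia and antenna had tested probe sets for 3 of 4, 2 of 3 and 3 of 4 listed genes. Passing the filter does not by itself tell head from other tissue, since 3 of 5 gut and 2 of 5 Malpighian tubule markers also passed. Of 5 listed eye markers 2 were measured (trp and inaD), while ninaE, ninaC and norpA were not. Summed intensities of trp and inaD were 6213 to 6644 in deletion heads and 3612 to 4989 in wild-type heads. Those of 4 head fat body markers (Obp99b, fit, Lsp2 and apolpp) were 14467 to 16477 in deletion heads and 19255 to 22940 in wild-type heads. Neither pair of ranges overlapped. Antenna markers summed to 3594 to 3627 in deletion heads and 3317 to 3426 in wild-type heads, also without overlap. Most of that sum came from Obp83b (means 2710 and 2558, log2 fold change 0.08). The antenna marker lush had 0.19, and Orco had 0.03 with overlapping groups. None of these was called with genotype alone. Glia markers summed to 891 to 996 and 986 to 1151. Neuron markers summed to 938 to 1062 in deletion heads and 814 to 985 in wild-type heads, with overlap. These are whole heads, in which fewer cells of a type and less RNA per cell cannot be told apart. A sum also does not show whether its genes changed alike.

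The families differed in how many members were measurable. Of 35 Ugt probe sets 20 passed the intensity filter (57.1%), and of 36 Gst probe sets 33 did (91.7%), where the filter passes 60% of all probe sets by its construction. The 15 Ugt probe sets that did not pass had intensities from 4.69 to 8.17 on every array, and the 3 Gst probe sets from 4.60 to 8.06. The Gst genes were GstD4, GstD5 and GstD6, neighbours within the GstD row of genes. The Ugt genes were Ugt35D1, Ugt35E1, Ugt37A1, Ugt37A2, Ugt37C1, Ugt37C2, Ugt37E1, Ugt49B2, Ugt303A1, Ugt303B1, Ugt303B2, Ugt303B3, Ugt304A1, Ugt305A1 and Ugt307A1. Just inside the filter were Ugt302E1 (mean 8.28 in deletion and 8.77 in wild-type heads) and GstD7 (8.44 and 8.53), and just outside it was Ugt37A1 (7.60 and 7.61). None of the 18 was called in a limma fit without the filter, nor was any of the 7508 probe sets that did not pass it. Before adjustment 2 of the 18, 1 in each family, had limma p under 0.05, as had 404 of the 7508. The tested members therefore do not stand for the whole Ugt family, and the dim probe sets say nothing on whether those genes are silent in the head.

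Across the tested members the Ugt family held the 1 call by limma. It was called lower, which is 1 of 20 Ugt probe sets against 0 of 33 Gst probe sets, with 2.6% called over all probe sets (1.23% higher and 1.38% lower). In each family 2 probe sets differed by more than 1.3-fold, as did 4.16% of all probe sets. Before adjustment 4 Ugt and 10 Gst probe sets had p under 0.05, where 17.6% of all probe sets had. Of the 20 Ugt genes 14 had a negative log2 fold change (median -0.04), as had 16 of 31 Gst genes (median -0.0013). Over all named genes 50.0% were negative (median close to 0). The lean of the Ugt family was not stable, since 12 of 20 were negative after quantile normalization and 10 of 20 with array weights. The 3 values of a genotype lay beyond the 3 of the other in 4 Ugt probe sets and 9 Gst probe sets, as in 24% of all probe sets. The median spread within a genotype was 0.11 on the log2 scale for Ugt genes, 0.08 for Gst genes and 0.10 for all named genes. The difference between the families was not tested.

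**Figure D1:**
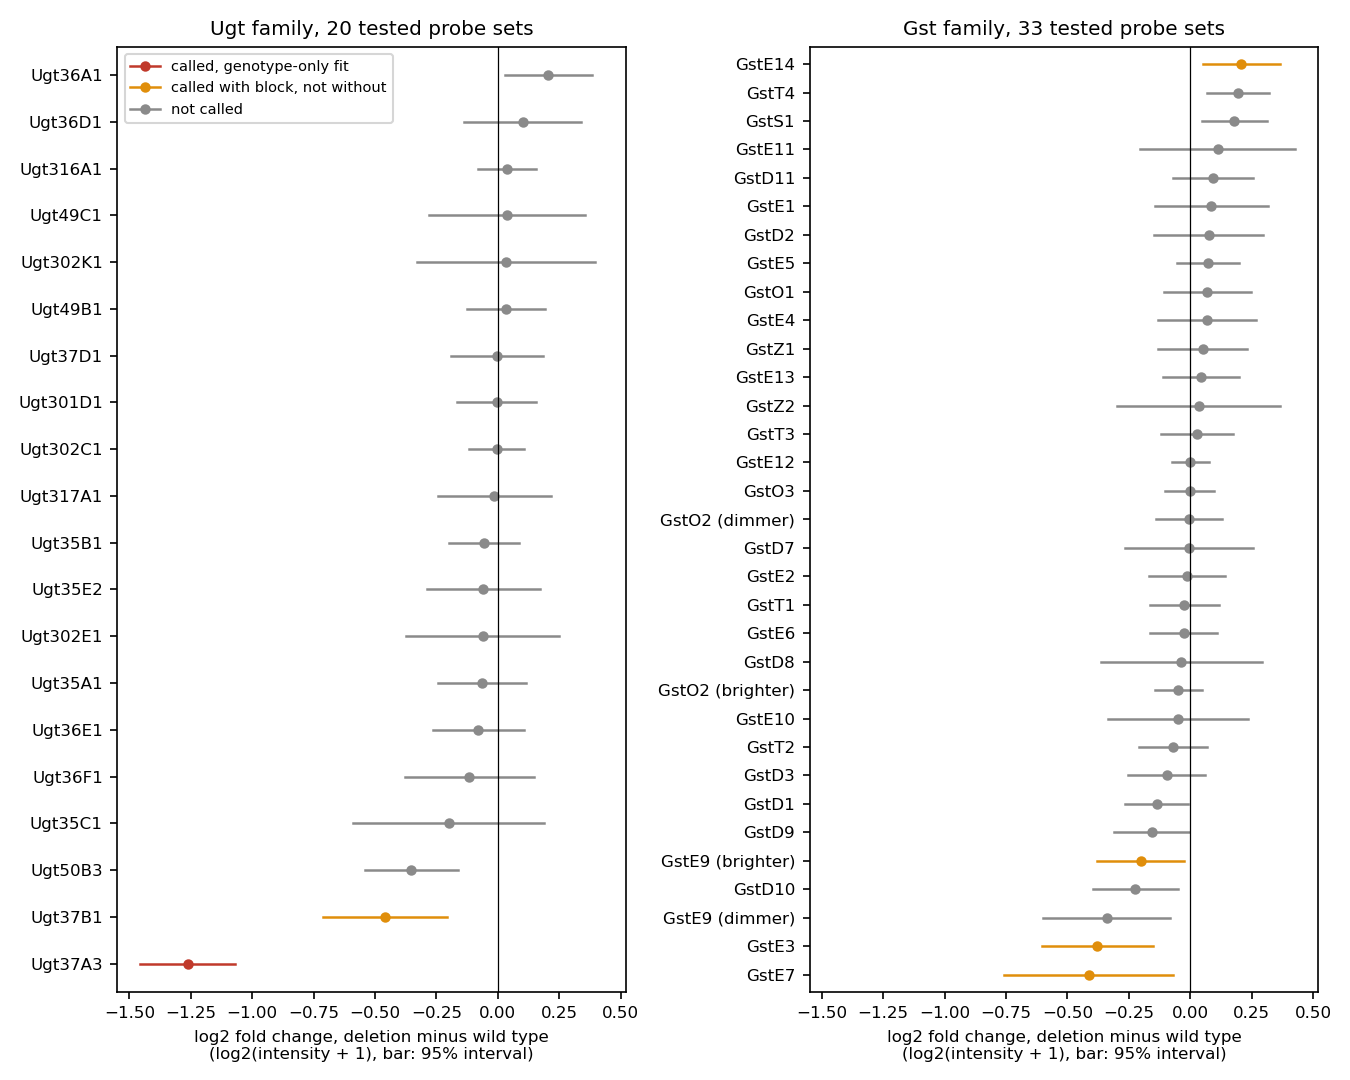
Log2 fold change (deletion minus wild type, horizontal axis) of every tested Ugt (left) and Gst (right) probe set with its 95% interval, 3 arrays per genotype. Ugt37A3 stands at -1.26 in red, the members in orange were called with the replicate number as a block but not with genotype alone, and the others were called in neither fit.

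Arrays with the same replicate number deviated together across the whole array, so a second fit carried the number as a block. With the block the calls took in 7.4% of all probe sets (3.42% higher, 3.98% lower). The members called were 2 of 20 Ugt probe sets, both lower, and 4 of 33 Gst probe sets, 1 higher and 3 lower. The block was chosen from these same values, so its p may be too favourable. The members showed the shared deviation on replicates 1 and 2, but the Ugt genes did not show it on replicate 3. On wild-type replicate 1, 15 of 20 Ugt genes and 21 of 31 Gst genes lay above their 6-array mean, with a median deviation of 0.10 and 0.08 on the log2 scale. On wild-type replicate 2 the counts were 6 of 20 and 9 of 31. The deletion arrays kept the same order for replicates 1 and 2 with smaller deviations, with 12 and 9 Ugt genes and 20 and 10 Gst genes above the mean. On replicate 3 the families parted from each other, since 6 of 20 Ugt genes were above the mean on the deletion array and 13 on the wild-type array, while 14 of 31 Gst genes were above it on each. The median deviation over all 8670 named genes stayed within 0.02 on every array.

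**Figure D2:**
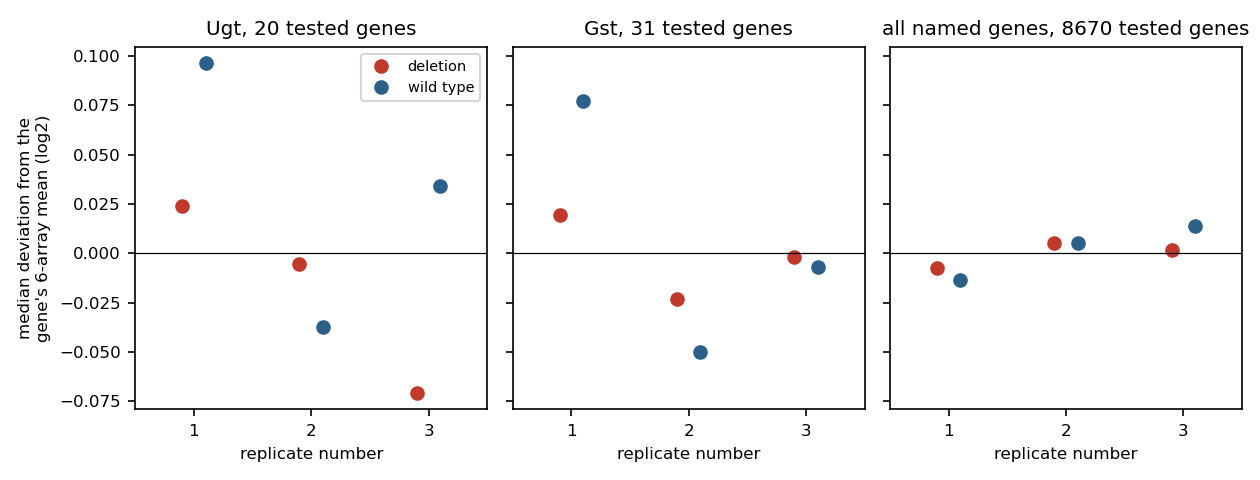
Median deviation of the tested genes from their 6-array means (log2, vertical axis) by replicate number, for the Ugt genes, the Gst genes and all named genes, with deletion in red and wild type in blue. Wild-type replicate 1 is the highest point in both families, at 0.10 and 0.08.

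Ugt37A3, on 3R, was the member with the largest change. Its intensities were 30.8, 28.3 and 33.7 on the deletion arrays, against 74.0, 77.4 and 75.1 on the wild-type arrays. Every deletion value was less than every wild-type value, and the replicates of a genotype lay close together. The log2 fold change was -1.26 ± 0.08 (SE, n = 3 per genotype), a 2.40-fold difference, with an adjusted p of 0.00064 (limma). It was called under each of 15 alternatives, with log2 fold changes from -1.32 to -0.96 and adjusted p from 0.000269 to 0.00645. Ugt37A2, its neighbour in the gene order and a member of the same named group, had means of 5.07 in deletion and 5.04 in wild-type heads and was too dim to test.

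The other measurable members of the Ugt37 group differed among themselves. Ugt37B1, on 2L, had intensities of 105, 99.9 and 116 on the deletion arrays, against 155, 126 and 165 on the wild-type arrays. The groups did not overlap, and the wild-type values were the more scattered. Its log2 fold change of -0.46 ± 0.11 (SE) missed the threshold (limma adjusted p = 0.0727) and passed it with the block (adjusted p = 0.0105), with adjusted p from 0.0105 to 0.239 over the alternatives. It also passed without wild-type replicate 2 (-0.58, limma adjusted p = 0.0422). Ugt37D1, also on 2L, had means of 222 ± 11.1 in deletion heads and 223 ± 21.4 in wild-type heads (SD, n = 3), a log2 fold change of -0.0031 with a 95% interval from -0.19 to 0.18.

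Ugt50B3 lay near the dim end. Its intensities were 9.72, 11.0 and 10.2 on the deletion arrays, against 13.0, 13.7 and 13.5 on the wild-type arrays, a small and clean separation (log2 fold change -0.35 ± 0.08 SE, limma adjusted p = 0.0694, and 0.0649 with the block). It passed only with array weights (adjusted p = 0.0433), and adjusted p ran from 0.0433 to 0.204 over the alternatives. At such intensities the log2 fold change depends on the constant added before the log, and it was -0.16 with a constant of 16.

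The highest Ugt log2 fold change was that of Ugt36A1, known as Dorothy from its expression in pericardial cells and hemocytes. Its intensities were 118, 119 and 114 on the deletion arrays, against 112, 96.6 and 95.8 on the wild-type arrays. The lowest deletion value lay just above the highest wild-type value, and the log2 fold change of 0.20 ± 0.08 (SE) was not called (limma adjusted p = 0.219, and 0.129 with the block). The other Ugt36 genes, Ugt36D1, Ugt36E1 and Ugt36F1, are neighbours on 2L and had 0.10, -0.08 and -0.12, with overlapping groups. Ugt36D1 had 126, 130 and 132 on the deletion arrays, against 104, 121 and 139 on the wild-type arrays, whose spread enclosed all deletion values. Without wild-type replicate 1 its log2 fold change was -0.0044. Ugt36F1 had 72.8, 68.0 and 55.6 on the deletion arrays, against 77.2, 66.1 and 68.9 on the wild-type arrays.

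The longest Ugt row, 10 genes on 3R, showed no call. Of these 10 genes 7 were tested, 6 with a negative and 1 with a positive log2 fold change, from -0.20 to 0.03. Ugt35B1, a gene first described for its expression in the antenna, had intensities of 650, 576 and 584 on the deletion arrays, against 659, 610 and 611 on the wild-type arrays. The groups overlapped, and the log2 fold change of -0.06 had a 95% interval from -0.20 to 0.09. Ugt35A1 had -0.07 and Ugt302C1, with means of 349 and 350 in deletion and wild-type heads, had -0.0051 (95% interval from -0.12 to 0.11). Ugt35C1 had the lowest value of the row, -0.20, but its arrays read 86.1, 55.6 and 66.9 in deletion heads and 93.1, 69.8 and 75.2 in wild-type heads. Replicate 1 was the brightest array in both genotypes, and the groups overlapped widely. Ugt302K1 gave the positive value of the row, with 12.7, 11.2 and 12.6 on the deletion arrays, against 15.3, 11.3 and 9.59 on the wild-type arrays, again with wild-type values on both sides of the deletion values.

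The remaining tested Ugt genes had differences close to 0. Ugt301D1, Ugt317A1, Ugt316A1, Ugt49B1 and Ugt49C1 had log2 fold changes from -0.01 to 0.04. Ugt316A1 had 221, 214 and 209 on the deletion arrays, against 210, 206 and 213 on the wild-type arrays, and the narrowest of their 95% intervals, from -0.08 to 0.16. The widest was that of Ugt49C1, from -0.28 to 0.35, with deletion arrays at 181, 225 and 264 and wild-type arrays at 193, 216 and 239. For that gene the arrays of equal number resembled each other more than the arrays of a genotype did.

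**Figure D3:**
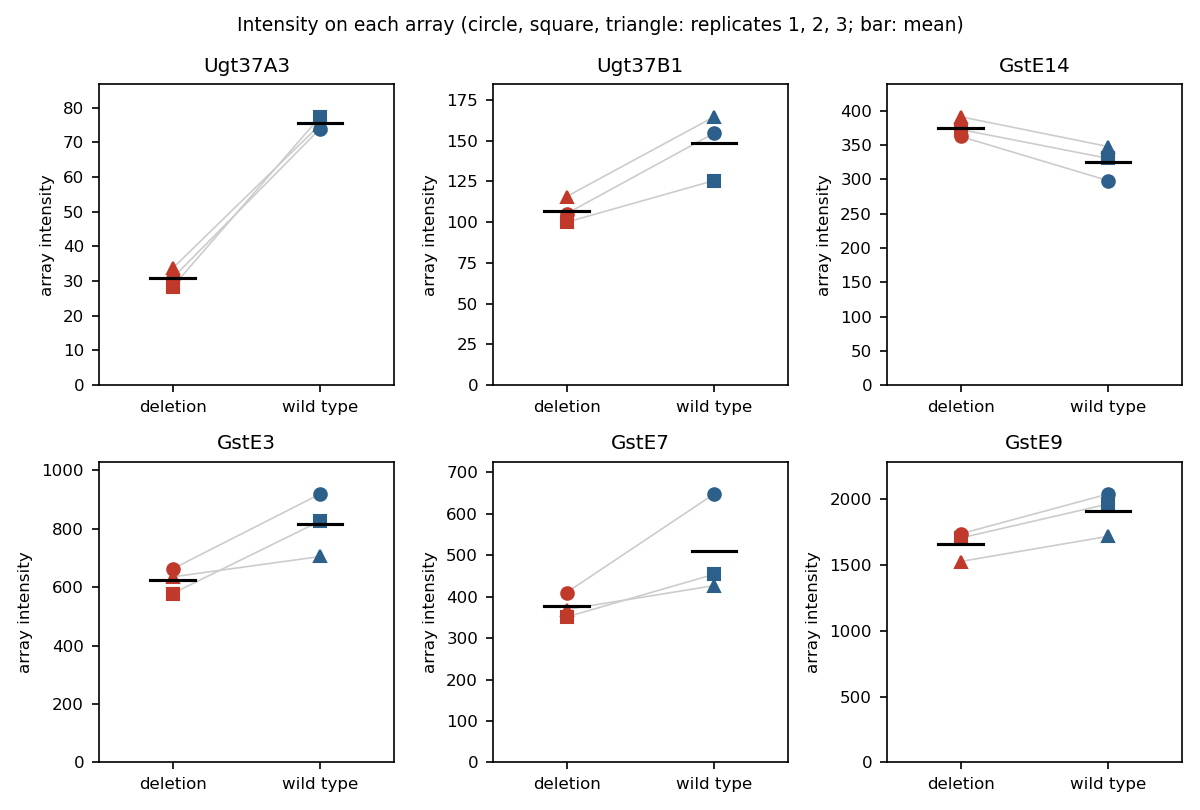
Intensity on each array (vertical axis, linear, from 0) of the 6 members called by limma with genotype alone or with the replicate number as a block, deletion in red on the left and wild type in blue on the right, with arrays of equal number joined and means as bars. Ugt37A3 shows the widest gap, 30.9 against 75.5, and the GstE7 gap is drawn out by wild-type replicate 1.

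Among the Gst genes, the epsilon class held all 4 of the calls made with the block. It is the largest class, with 14 of the 33 tested Gst probe sets. None of the 4 was called with genotype alone, and the block called 7.4% of all probe sets. GstE3 had intensities of 663, 579 and 636 on the deletion arrays, against 920, 827 and 705 on the wild-type arrays. The groups did not overlap, but the lowest wild-type array came close to the deletion arrays. The log2 fold change was -0.38 ± 0.10 (SE), with an adjusted p of 0.0913 (limma) and 0.0263 with the block. It also passed with array weights (adjusted p = 0.0499) and without wild-type replicate 3 (-0.48, limma adjusted p = 0.0448), and adjusted p ran from 0.0263 to 0.287 over the alternatives.

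GstE7 had intensities of 410, 351 and 369 on the deletion arrays, against 648, 454 and 427 on the wild-type arrays. Wild-type replicate 1 stood far above the others, and the deletion array of the same number was the highest of its genotype. The log2 fold change was -0.41 ± 0.15 (SE), the lowest of the family, with an adjusted p of 0.202 (limma) and 0.0297 with the block. Without wild-type replicate 1 it was -0.23 and not called (limma adjusted p = 0.133), and without both arrays numbered 1 it was -0.29 and called (adjusted p = 0.0374). Over the alternatives adjusted p ran from 0.0297 to 0.451.

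GstE9 was read by a bright and a dim probe set that leaned the same way. The bright probe set had 1735, 1704 and 1525 on the deletion arrays, against 2038, 1962 and 1716 on the wild-type arrays. Its groups overlapped, since the lowest wild-type array was below the highest deletion array, but in each pair of equal number the deletion array was the lower. Its log2 fold change was -0.20 ± 0.08 (SE), with an adjusted p of 0.222 (limma) and 0.0217 with the block, and from 0.0217 to 0.492 over the alternatives. The dim probe set had 11.1, 9.22 and 11.1 on the deletion arrays, against 15.2, 13.1 and 12.3 on the wild-type arrays. Its groups did not overlap, but its log2 fold change of -0.34 was called in neither fit (limma adjusted p = 0.169, and 0.106 with the block).

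GstE14, also called noppera-bo, is needed for ecdysteroid synthesis in the larval prothoracic gland, and it leaned the other way. Its intensities were 363, 373 and 391 on the deletion arrays, against 298, 331 and 348 on the wild-type arrays, with no overlap. The log2 fold change was 0.21 ± 0.07 (SE), with an adjusted p of 0.165 (limma) and 0.0458 with the block. The block gave the 1 call among the alternatives, over which adjusted p ran from 0.0458 to 0.391. GstE14 lies apart from the row of epsilon genes on 2R.

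That row holds 10 epsilon genes, of which 9 were measured here. GstE8, which lies between GstE7 and GstE9, was not analysed here. Between GstE3 and GstE7 lie GstE4, GstE5 and GstE6, with log2 fold changes of 0.07, 0.07 and -0.03, and before GstE3 lie GstE10, GstE1 and GstE2, with -0.05, 0.09 and -0.01. Of these 6 genes only GstE5 had groups that did not overlap, with means of 142 in deletion and 134 in wild-type heads (limma adjusted p = 0.551). GstE1 had 814, 733 and 757 on the deletion arrays and 847, 699 and 638 on the wild-type arrays, again with replicate 1 the highest in both genotypes. Outside the row GstE12 was the most even member, with 3136 ± 16.1 in deletion and 3134 ± 31.0 in wild-type heads (SD, n = 3), a log2 fold change of 0.0008 and a 95% interval from -0.07 to 0.08. GstE13 had 0.04. GstE11 had 236, 209 and 254 on the deletion arrays, against 246, 173 and 234 on the wild-type arrays, with replicate 2 the lowest in both genotypes. Its log2 fold change of 0.11 turned to -0.05 without wild-type replicate 2.

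**Figure D4:**
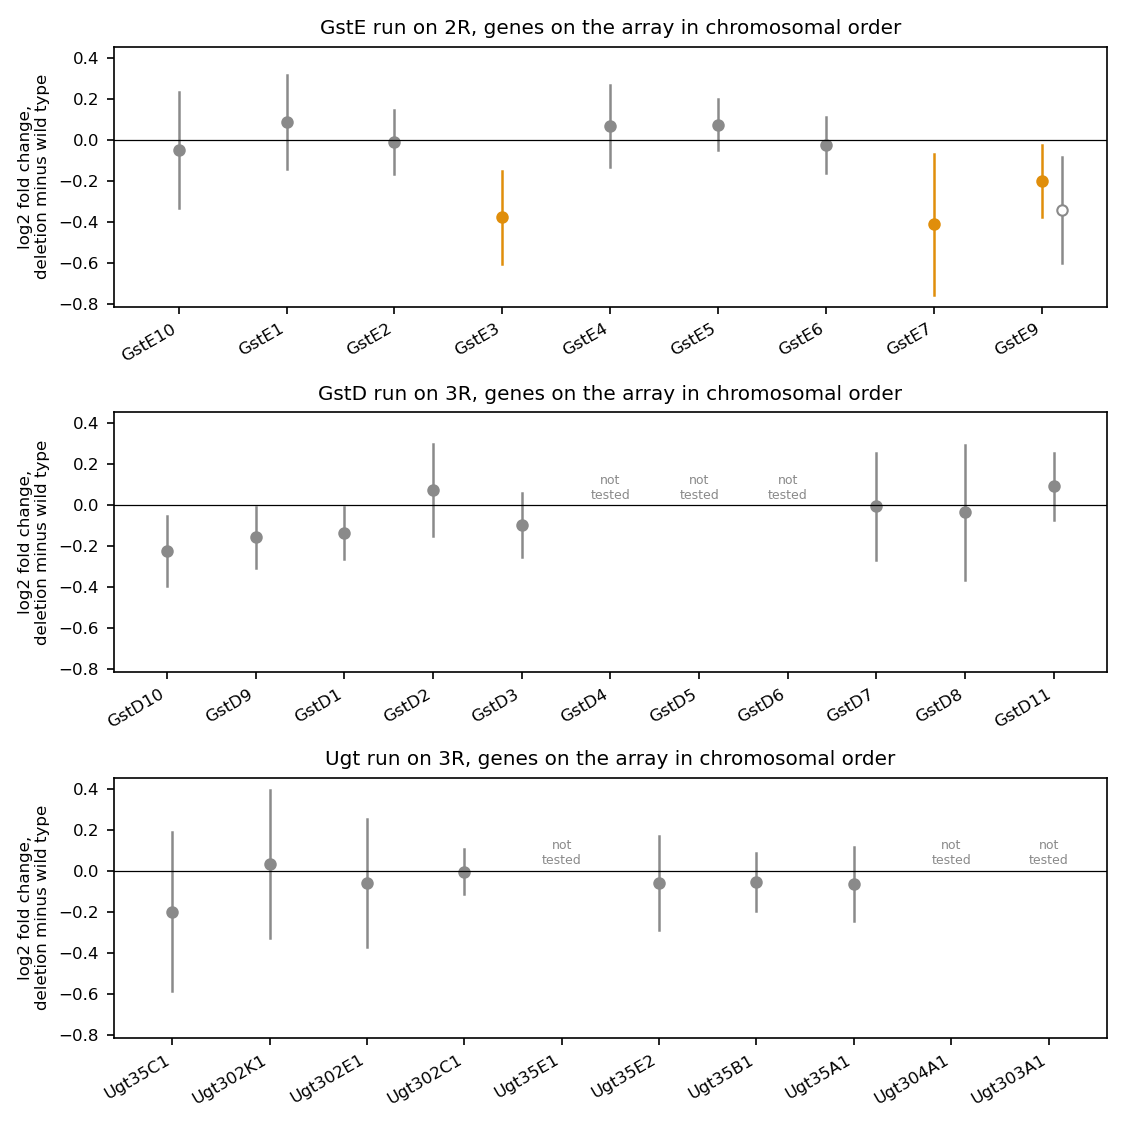
Log2 fold change (deletion minus wild type, vertical axis) with 95% intervals along the 3 longest rows of neighbouring family genes, in chromosomal order (genes on the array, not to distance): GstE genes on 2R, GstD genes on 3R and Ugt genes on 3R. Orange points were called with the replicate block but not with genotype alone, and open points are a second probe set. GstE4, GstE5 and GstE6, between GstE3 and GstE7, lie near 0, and GstE8, between GstE7 and GstE9, was not analysed here.

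The delta class forms a row of 11 genes on 3R and had no call in either fit. Below 0 were 6 of its 8 tested members (median log2 fold change -0.07), and 3 of the 8 were lower in every pair of equal number. These were GstD10, GstD9 and GstD1, which lie side by side at one end of the row. GstD1, widely used as a reporter of oxidative stress and able to break down DDT, had 2291, 2107 and 2160 on the deletion arrays, against 2533, 2431 and 2252 on the wild-type arrays. Its groups just overlapped, and the log2 fold change of -0.14 ± 0.05 (SE) had an adjusted p of 0.252 (limma), or 0.0988 with the block. GstD9 had -0.16 (adjusted p = 0.265, or 0.156 with the block). GstD10 had 25.9, 24.1 and 25.9 on the deletion arrays, against 29.9, 29.9 and 29.3 on the wild-type arrays. That separation was clean, with a log2 fold change of -0.22 ± 0.07 (SE), but was not called (adjusted p = 0.174, or 0.170 with the block). Further along, GstD2 (0.07), GstD3 (-0.10), GstD7 (-0.0047), GstD8 (-0.04) and GstD11 (0.09) had overlapping groups. For GstD11, the highest of them, the deletion arrays read 134, 142 and 134 and the wild-type arrays 120, 126 and 139.

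Among members named Gst, the other classes had no call. GstS1, the sigma class enzyme that is abundant in flight muscle and acts on products of lipid peroxidation, had 583, 559 and 525 on the deletion arrays, against 516, 477 and 480 on the wild-type arrays. The groups did not overlap (log2 fold change 0.18 ± 0.06 SE, limma adjusted p = 0.159, and 0.0524 with the block). In the theta class GstT4, on the X and 739 genes from Sxl, had 415, 384 and 395 on the deletion arrays, against 342, 364 and 337 on the wild-type arrays, again with no overlap (0.19 ± 0.05 SE, limma adjusted p = 0.112, and 0.0813 with the block). The other theta genes GstT1, GstT2 and GstT3 had -0.02, -0.07 and 0.03. In the omega class, whose human members reduce dehydroascorbate, the genes named GstO lay within 0.07 of 0. The omega gene sepia, outside the name rule, is given below. GstO1 had 0.07, GstO3 -0.0013 (95% interval from -0.10 to 0.10), and the 2 probe sets of GstO2 had -0.05 and -0.0033. The zeta class, whose mammalian member acts in tyrosine breakdown, had 0.05 for GstZ1 and 0.03 for GstZ2.

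Both families were also counted over the pairs of equal number, without a test. Of the 20 Ugt probe sets 7 were lower in the deletion array of every pair and 1 was higher in every pair. Of the 33 Gst probe sets 7 were lower in every pair and 4 were higher. Over all tested probe sets 22.0% were lower and 22.7% higher in every pair. All 4 tested Ugt35 probe sets and all 3 tested Ugt37 probe sets had a negative log2 fold change. The counts were 2 of 4 for Ugt36, 0 of 2 for Ugt49, 1 of 1 for Ugt50 and 4 of 6 for the Ugt300 series. Over all tested probe sets 48.7% were negative. These groups are small, and some of the values were close to 0 (median -0.06 for Ugt35, and -0.0031 for Ugt37D1).

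The genes that supply and control these enzymes were followed in 5 lists. Of 38 tested genes 2 were called by limma, 1 higher and 1 lower, and 4 with the block. Over all named genes 2.69% and 7.73% were called. Of the 38 genes 20 were negative (median -0.0039). The call higher was sepia (se), which belongs to the omega class of glutathione transferases by sequence, makes a precursor of the red eye pigment and is not covered by the name rule. It had 764, 686 and 769 on the deletion arrays, against 443, 521 and 492 on the wild-type arrays, with a log2 fold change of 0.61 ± 0.07 (SE, limma adjusted p = 0.00847). It was called in 14 of 15 alternatives and was not without deletion replicate 3 (0.58, limma adjusted p = 0.0576). The 2 measured eye markers were also higher, as given above, and their part in the result was not tested. The other GST-related genes, gfzf, Mgstl, Clic, eEF1gamma, AIMP3 and Gdap1, had values from -0.10 to 0.10.

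In the list of glutathione supply and redox, 7 of 10 genes were negative and Sod2, the mitochondrial superoxide dismutase, fell. Its intensities were 604, 591 and 559 on the deletion arrays, against 711, 713 and 670 on the wild-type arrays, with no overlap (log2 fold change -0.26 ± 0.05 SE, limma adjusted p = 0.0448). The call held in 7 of 15 alternatives. It was lost on omission of any 1 of the 6 arrays (limma adjusted p from 0.0517 to 0.161). It was also lost without the intensity trend (adjusted p = 0.102) and without the filter (adjusted p = 0.0540). Grx1, a glutaredoxin that uses glutathione, had -0.22 (adjusted p = 0.0860, and 0.0268 with the block, from 0.0254 to 0.280 over the alternatives). The subunits of the enzyme that limits glutathione synthesis, Gclc and Gclm, had -0.0070 and 0.08.

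In the list of UDP-sugar supply 5 of 6 genes were negative (median -0.12) and none was called by limma. Before adjustment 3 of the 6 had limma p under 0.05, as had 1613 of all 8670 named genes. UGP, which makes UDP-glucose, had 43.2, 45.1 and 44.1 on the deletion arrays, against 54.5, 50.2 and 57.7 on the wild-type arrays. The groups were well apart, with a log2 fold change of -0.29 ± 0.08 (SE, limma adjusted p = 0.103, and 0.0877 with the block). Pgm1 had -0.16 and sgl, which makes UDP-glucuronic acid, -0.06. The hexokinase gene Hex-A, on the X, had 0.18 and passed with the block (adjusted p = 0.0434, against 0.287 without it, and up to 0.584 over the alternatives).

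Among the regulators of detoxification none of 8 was called in either fit, with 1 at p under 0.05 before adjustment. The oxidative stress factor cnc had 0.04, its partner maf-S -0.03 and its inhibitor Keap1 -0.04. The xenobiotic receptor Hr96 had -0.05, the heat shock factor Hsf -0.12 and the stress factor crc 0.11. Of the 7 other detoxification genes none was called in either fit by its brightest probe set, and none had p under 0.05 before adjustment. The juvenile hormone epoxide hydrolase Jheh2 and the exporter MRP, which had the smallest p of the list (0.422 and 0.494), had log2 fold changes of 0.04 and 0.06. The sulfotransferase gene St3 had probe sets that disagreed, 0.01 on the brighter and -0.37 on the other (limma adjusted p = 0.0503, and 0.0231 with the block, from 0.0231 to 0.161 over the alternatives).

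**Figure D5:**
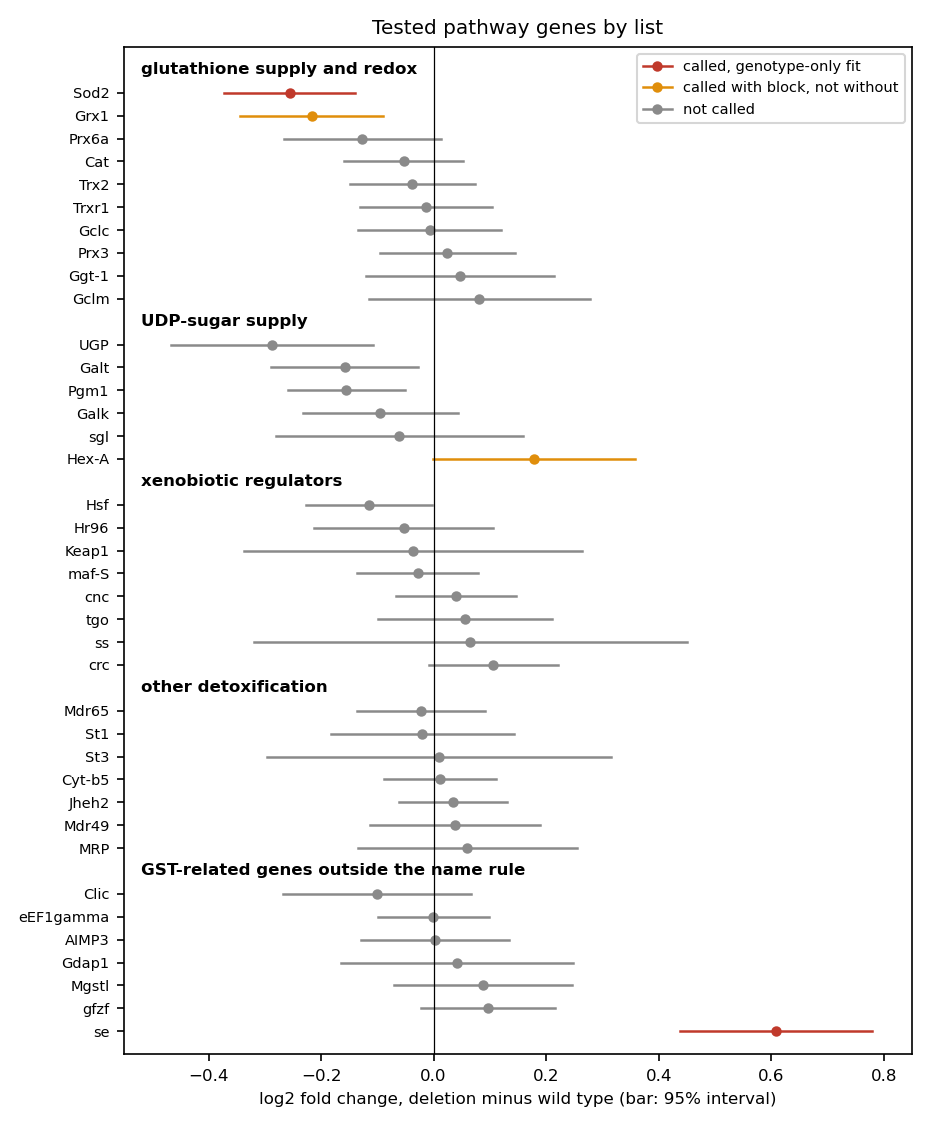
Log2 fold change (deletion minus wild type, horizontal axis) with 95% intervals of the 38 tested genes in 5 lists around the families, each gene by its brightest probe set. Sod2 (-0.26) and se (0.61) are red, Grx1 and Hex-A are orange for calls made with the replicate block but not with genotype alone, and the regulators lie near 0.

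All 4 measured fat body markers had a negative log2 fold change. Of these, 2 were called by limma (Obp99b at -0.91 and fit at -0.62) and 3 with the block. The changes were uneven, with Lsp2 at -0.35 (limma adjusted p = 0.0612) and apolpp at -0.08 (limma adjusted p = 0.262). Gut markers summed to 54.6 to 64.0 in deletion heads and 59.8 to 80.9 in wild-type heads, with alphaTry and Jon99Ci too dim to test. Malpighian tubule markers summed to 592 to 654 and 605 to 640, almost all of it from Irk2, with salt and Cyp6a18 too dim to test. Both of these pairs of ranges overlapped. Testis markers were dim, with dj, Mst84Da and can too dim to test. They summed to 23.4 to 25.0 in deletion heads and 27.3 to 37.1 in wild-type heads, without overlap. Taken singly, only Mst84Da had groups that did not overlap, at 5.88 to 6.93 in deletion and 7.83 to 14.1 in wild-type heads. The highest sum was that of wild-type replicate 1, the array that stood apart for GstE7. The part of any of these tissues in the Ugt and Gst values was not tested. Probe sets of neighbouring, similar genes may share signal. The 4 member probe sets with the suffix _s_at, which marks probes common to several transcripts, were those of Ugt36E1, Ugt37D1, Ugt50B3 and GstS1. The GstZ2 probe set has the suffix _a_at and is not among them.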

How the data were processed

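RNA from 3 deletion and 3 wild-type head samples was measured on Affymetrix arrays, with biotin-labelled cRNA per the labels' protocols. The authors deposited a linear intensity per probe set and array. Summarisation and normalization are not given in the sources used here. Array medians were 14.2 to 14.6, a log2 difference of 0.0432 (limit 0.2), so no further normalization was applied. The number of arrays limits the precision (median standard error 0.08 on the log2 scale).

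The constant 1 was added to each intensity before log2 was taken, and limma 3.58.1 (R 4.3.3) gave every test. After removal of 183 controls among 18952 probe sets, the 11261 at or above the 40th percentile of mean log2 value were tested (lmFit, eBayes with an intensity trend, genotype only, two-sided, Benjamini-Hochberg over all tested). Platform annotation named a single gene on 13647 probe sets. Another 402 had several names and 4720 had none. Current symbols came from a RefSeq table (Release 6 plus ISO1 MT), matched by Entrez identifier (13544 probe sets) or by an older symbol or locus tag (91), while 12 kept the annotated symbol. The same table gave gene order. A row of genes means family members at most 5 places apart. A gene counts by its brightest tested probe set. Symbols of the Ugt and Gst families in the RefSeq table numbered 70, of which 69 were analysed here.

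Deviations from genotype means correlated at 0.114 to 0.248 between arrays of equal replicate number and at -0.223 to 0.0573 otherwise. The numbers were therefore taken to pair the arrays, a pairing that rests on the values and not on the labels. Values per array were given for members called in either fit and for the 5 highest and 5 lowest log2 fold changes of each family, with further members added after their values were seen. In the 5 lists, genes called in either fit and the 2 with the smallest p were to be named, again with additions. Members and lists were chosen with earlier results of these data known. Intervals cover 95%. The procedure was tested on simulated arrays, where it called 43.3% of 1.3-fold, 63.6% of 1.5-fold and 93.9% of 2-fold changes. The simulated noise was independent between arrays, without the deviation shared by replicate number. Alternatives covered filter, normalization, constant, variance model, array weights, block, threshold, choice of probe set and omission of arrays. No sample was left out. Promoter and protein sequences were not analysed here.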

Additional observations from a re-analysis of the deposited data

How the results depend on the processing

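The count of called Ugt probe sets, 1 in the limma fit with genotype alone, was 2 with array weights, 2 with the replicate block and 3 at a threshold of 0.1, and 1 to 2 when each array was omitted in turn (2 without wild-type replicate 2). The share called over all probe sets, 2.6% with genotype alone, was 5.08%, 7.4% and 6.07% under those settings, 0.48% to 3.84% on omission of an array (0.977% without wild-type replicate 2 and 1.39% without wild-type replicate 3), 4% without both arrays numbered 1, 1.4% without the filter and 1.14% without the intensity trend. The Gst count of 0 was 1 with array weights, 4 with the block, 1 at a threshold of 0.1 and 1 without both arrays numbered 1, and 0 to 1 on such omission (1 without wild-type replicate 3). The count of 2 called genes in the 5 lists was 1 without the filter, 1 without the intensity trend and 4 with the block, and 0 to 1 on such omission (0 without deletion replicate 3). The Ugt median of -0.035 ran from -0.05 to -0.01 and the Gst median of -0.0013 from -0.03 to 0.03 on such omission, within the spread of array medians (0.058 and 0.048). Of the 20 member probe sets recomputed one by one, 4 that were not called turned sign on such omission, over ranges of -0.11 to 0.21 for Ugt302K1, -0.091 to 0.18 for Ugt49C1, -0.0044 to 0.21 for Ugt36D1 and -0.046 to 0.21 for GstE11. The block changed no other call among the members than the 5 given above. Omitting both arrays numbered 1 and omitting Ugt37A3 from the Ugt median (-0.01) were chosen after the data were seen. The cause of these changes was not tested. Signals near 8 limit what could be said of 18 members.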
